A study of Mus musculus with 6 samples.

Results

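The miRNAs miR-192, miR-194 and miR-215 are the characteristic miRNAs of enterocytes, the absorptive cells of the intestinal epithelium. Their mature forms were taken by name from the table of 604 miRNAs measured in mouse intestine, and 5 of the 6 names listed were found there. These were mmu-miR-192-5p, mmu-miR-194-5p, mmu-miR-215-5p, mmu-miR-215-3p and mmu-miR-194-2-3p, while mmu-miR-192-3p was not analysed here. The table also lists mmu-miR-194-1-3p, the 3p arm of the other miR-194 hairpin, which is described beside them.

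Small RNA was sequenced from the intestine of wild-type C57BL/6J pups, with 3 libraries in the Control group and 3 in the NEC group. The NEC group was the experimental model of necrotizing enterocolitis. From day 5 of age these pups received 40 μl of 33% formula and PBS by gavage every 4 h for 96 h, and every 12 h they had 100 s in nitrogen and then 10 min at 4 °C. The Control group stayed with the dam without hypoxia or cold, and its treatment label is PBS, so feeding, hypoxia, cold and handling differed together between the groups. Whether every library stands for a pup of its own is not stated in the labels or the study's methods, so p-values cover the spread between these libraries, which may be technical. The values were deposited on a log2 scale without read counts. The depth of each library is therefore unknown, no counting interval is given, and differences are given in log2 units of the deposited scale, which cannot be read as folds of read counts.

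The library codes in the labels fall in 2 series, and the labels do not say what a code stands for. Code series 1 holds Control replicates 1 and 2 and NEC replicates 2 and 3, and code series 2 holds Control replicate 3 and NEC replicate 1. Spearman's correlation across the miRNAs tested, which are not independent replicates, was 0.973 to 0.990 for pairs within a series and 0.923 to 0.943 for pairs across them. The members are therefore described by code series as well as by condition. The 7 other epithelial miRNAs listed as markers were all found, and miR-200b-3p, miR-200c-3p and miR-200a-3p led them with mean log2 values of 15.18, 13.56 and 13.28. Smooth muscle and mesenchyme also contributed to the tissue, with miR-143-3p at a mean of 18.88.

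A miRNA is cut from a hairpin precursor, whose 5′ and 3′ sides give the 5p and the 3p arm. One arm is mostly loaded into Argonaute as the guide, which pairs with target mRNAs through its seed, bases 2 to 8, and the other arm is mostly degraded. The miR-192, miR-194 and miR-215 hairpins form a pair of small clusters, each with 1 copy of miR-194. They are known for high levels in the gut epithelium, for control by hepatocyte nuclear factors, and, in human cells, for induction by p53. In whole intestine, fewer epithelial cells and less of a miRNA per cell cannot be told apart.

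The mature sequences are shown because the shared and differing bases decide which members act as 1 group and which hairpin a product can be assigned to. They are RefSeq sequences on GRCm38.p6, 5′ to 3′, with the seed in capitals.
mmu-miR-192-5p: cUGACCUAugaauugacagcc
mmu-miR-215-5p: aUGACCUAugauuugacagac
mmu-miR-194-5p: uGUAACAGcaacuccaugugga
mmu-miR-215-3p: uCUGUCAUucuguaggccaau
mmu-miR-194-2-3p: cCAGUGGGgcugcuguuaucug
mmu-miR-194-1-3p: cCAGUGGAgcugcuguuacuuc

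The guides mmu-miR-192-5p and mmu-miR-215-5p had the same seed, and no other RefSeq mouse miRNA shared it. Over their 21 bases they differed at 3 positions, counted from the 5′ end with the base of miR-192-5p first, which were C1A, A12U and C20A. The seed of mmu-miR-194-5p was shared by no other RefSeq mouse miRNA. The 3p arms of the miR-194 hairpins differed at 4 of 22 positions, with the base of miR-194-2-3p first G8A, U19C, C20U and G22C, so G8A changed the last base of the seed. A read of a 3p arm can thus be assigned to 1 hairpin, while mmu-miR-194-5p is identical from both.

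The first cluster lies on chromosome 1 of GRCm38.p6, on the plus strand. Mir194-1 extends from 185313319 to 185313385 and Mir215 from 185313581 to 185313692, with 195 bases between them. In the GENCODE annotation Mir215 lies in exon 2 and Mir194-1 in an intron of the noncoding RNA 2010103J01Rik, and both are antisense to an intron of Iars2, which encodes a mitochondrial tRNA synthetase. The second cluster lies on the plus strand of chromosome 19. Mir194-2 extends from 6264643 to 6264728 and Mir192 from 6264844 to 6264932, with 115 bases between them. No other annotated gene contained either hairpin in full, and partial overlap was not examined. Members of 1 cluster may come from 1 transcript and the arms of a hairpin from 1 precursor, so the members are not independent measurements.

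The guide arms were among the most abundant miRNAs of the pup intestine. By mean log2 value over the 6 libraries, mmu-miR-215-5p ranked 3, mmu-miR-192-5p ranked 4 and mmu-miR-194-5p ranked 5 of 604. All are 21 or 22 bases long, but adapter ligation differs between sequences in small RNA libraries, so levels of different miRNAs compare reads and not molecules.

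The log2 values of mmu-miR-215-5p were 16.90, 16.68 and 17.87 in Control replicates 1, 2 and 3 and 17.65, 16.62 and 17.26 in NEC replicates 1, 2 and 3. The highest value of each group came from code series 2, and the groups overlapped. For mmu-miR-192-5p, which has the same seed, the values were 16.37, 16.39 and 17.17 in Control, against 17.10, 16.35 and 16.78 in NEC. Again Control replicate 3 and NEC replicate 1 were the highest. The values of mmu-miR-194-5p were 16.62, 16.36 and 17.04 in the Control libraries and 16.88, 16.05 and 16.51 in the NEC libraries. Its lowest value was in NEC replicate 2, and the ranges of the groups overlapped.

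The 3p arms were lower, and mmu-miR-215-3p and mmu-miR-194-2-3p spread more than the guides. The log2 values of mmu-miR-215-3p, which ranked 43, were 13.16, 12.66 and 10.39 in Control, against 10.36, 12.58 and 12.98 in NEC. Here Control replicate 3 and NEC replicate 1 were the lowest, opposite to the 5p arm of the same hairpin. For mmu-miR-194-2-3p, which ranked 125, the values were 9.18, 8.84 and 7.22 in Control and 7.10, 9.27 and 9.03 in NEC, with the same libraries lowest. The values of mmu-miR-194-1-3p, which ranked 329, were 4.18, 3.73 and 4.90 in Control, against 5.01, 4.12 and 4.52 in NEC. In this arm the libraries of code series 2 were the highest, as in the guides.

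**Figure D1:**
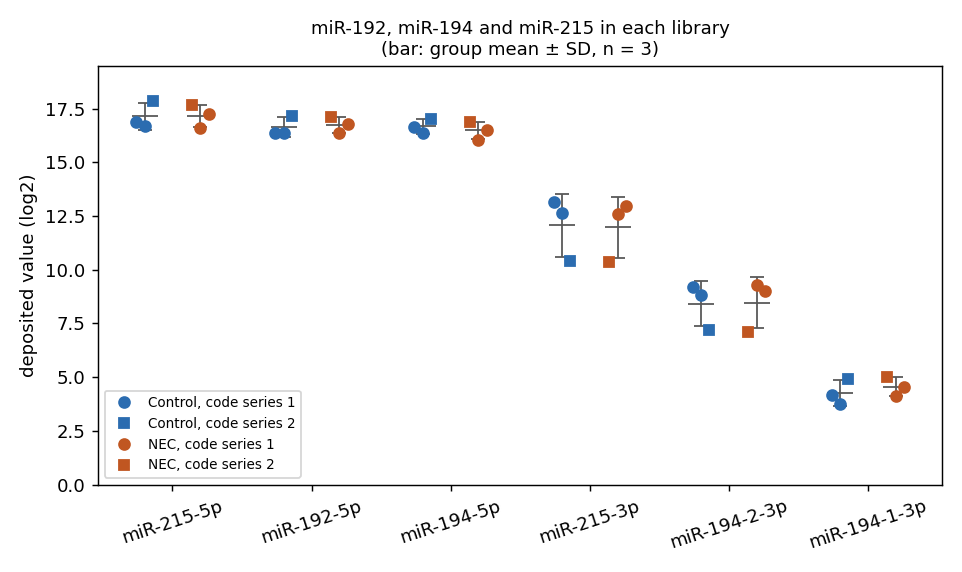
Deposited log2 value (vertical axis) of each miRNA (horizontal axis) in each library. Circles are libraries of code series 1, squares those of code series 2, blue is Control and orange NEC, and bars give the group mean and SD (n = 3). The squares of miR-215-3p lie at 10.39 and 10.36 and its circles at 12.58 to 13.16, with Control and NEC side by side in each series.

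None of the members passed the test between NEC and Control. Limma with Benjamini-Hochberg adjustment over the 386 miRNAs tested called none of the 5 members, and 0 miRNAs in all, which is 0% of those tested. Without adjustment, 11 miRNAs (2.85%) had a p under 0.05, and none was a member. The Control and NEC values overlapped for each of the 5 members, whereas they did not overlap for 9.84% of the miRNAs tested. The median difference of the members, NEC minus Control, was 0.03 on the log2 scale, with 3 higher and 2 lower, beside 0.01 over all 386.

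The log2 value of mmu-miR-192-5p was 16.64 ± 0.46 in Control against 16.74 ± 0.38 in NEC (SD, n = 3 each), and the groups differed by 0.10 (standard error 0.33, 95% interval -0.68 to 0.87). For mmu-miR-215-5p the difference was 0.03 (standard error 0.41, interval -0.93 to 0.98). For mmu-miR-194-5p it was -0.19 (standard error 0.31, interval -0.92 to 0.54). Each of the 3 had an adjusted p of 0.998 from limma, and the intervals left room for differences of more than 0.5 in either direction.

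The intervals were wider for mmu-miR-215-3p and mmu-miR-194-2-3p. The difference was -0.09 (standard error 0.90, interval -2.20 to 2.01) for mmu-miR-215-3p and 0.05 (standard error 0.71, interval -1.61 to 1.71) for mmu-miR-194-2-3p. For mmu-miR-194-1-3p it was 0.28 (standard error 0.38, interval -0.61 to 1.17), and the adjusted p was again 0.998 in limma for all 3.

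When the code series was added to the model, the differences stayed the same, because each series holds equal numbers of Control and NEC libraries, and the intervals became narrower. They were -0.29 to 0.48 for mmu-miR-192-5p, -0.44 to 0.50 for mmu-miR-215-5p and -0.59 to 0.21 for mmu-miR-194-5p. For the 3p arms they were -0.53 to 0.34 for mmu-miR-215-3p and -0.32 to 0.43 for mmu-miR-194-2-3p. In that fit 18.1% of all miRNAs tested and 0 of the 5 members had an unadjusted p under 0.05. The smallest adjusted p of a member was 0.545 in limma, for mmu-miR-194-5p, and the smallest of any miRNA was 0.109.

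Within the code series, mmu-miR-192-5p and mmu-miR-215-5p changed direction and mmu-miR-194-5p did not. The difference of mmu-miR-192-5p was 0.19 in series 1 and -0.08 in series 2, and that of mmu-miR-215-5p was 0.15 and -0.23. For mmu-miR-194-5p it was -0.21 in series 1 and -0.15 in series 2. The values of series 2 compare 1 library with 1 and have no replicate check.

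All 5 members differed between the code series, with the 3 guides higher and mmu-miR-215-3p and mmu-miR-194-2-3p lower in series 2. In limma with the condition in the model, 25.4% of the miRNAs tested were called higher and 32.1% lower in series 2 at an adjusted p under 0.05, so a call as such was common. The 5 members did not overlap between the series, and the same held for 68.1% of all miRNAs tested. The median difference over all 386 was -0.19. A miRNA that passed the minimum value only in the 2 libraries of series 2 was not tested, whereas one that passed it only in series 1 could be. The counts by direction and the median leave out such miRNAs. As deposited, 44.1% of the 222 calls were higher in series 2. After a median shift of the libraries it was 54.5% of 211 calls, and with equal totals 20.4% of 250 calls. Without Control replicate 3 the number of calls was 136, and without NEC replicate 1 it was 126.

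The difference, series 2 minus series 1, was 0.90 (standard error 0.21, adjusted p = 0.00975 from limma) for mmu-miR-215-5p. It was 0.66 (standard error 0.17, adjusted p = 0.0146) for mmu-miR-192-5p and 0.57 (standard error 0.18, adjusted p = 0.0297) for mmu-miR-194-5p. The guides thus were all higher in series 2, and differences among their amounts were not tested. Without Control replicate 3 the adjusted p in limma was 0.142 for mmu-miR-192-5p and 0.0988 for mmu-miR-215-5p. For mmu-miR-194-5p it was 0.0575 to 0.151 without Control replicate 2, Control replicate 3, NEC replicate 1 or NEC replicate 2, each left out in turn. When the libraries were shifted to an equal total, the difference was 0.32 for mmu-miR-192-5p, 0.23 for mmu-miR-194-5p and 0.56 for mmu-miR-215-5p, and the calls of the first and the second were lost (adjusted p = 0.191 and 0.316 in limma).

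The largest decrease between the code series among all 386 miRNAs was that of mmu-miR-215-3p, at -2.47 (standard error 0.20, adjusted p = 0.000123 from limma). The decrease of mmu-miR-194-2-3p was -1.92 (standard error 0.17, adjusted p = 0.000144), and 2 miRNAs tested fell further. These calls held when each library was left out in turn and under each of the 4 shifts tried, with differences of -2.81 to -2.27 for mmu-miR-215-3p and -2.26 to -1.71 for mmu-miR-194-2-3p. In contrast, mmu-miR-194-1-3p was higher in series 2 by 0.82 (standard error 0.20, adjusted p = 0.0105), a call that was lost without Control replicate 3 (adjusted p = 0.0948 in limma) and with equal totals (adjusted p = 0.0511).

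Of the variation over the 6 libraries, measured as the sum of squared deviations from the mean, the code series held 97.4% for mmu-miR-215-3p and 97.7% for mmu-miR-194-2-3p. It held 81.5% for mmu-miR-192-5p, 79.7% for mmu-miR-215-5p and 68.9% for mmu-miR-194-5p. The condition held at most 8.67% in these 5, for mmu-miR-194-5p. The median over all miRNAs tested was 66.0% for the code series and 9.05% for the condition.

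**Figure D2:**
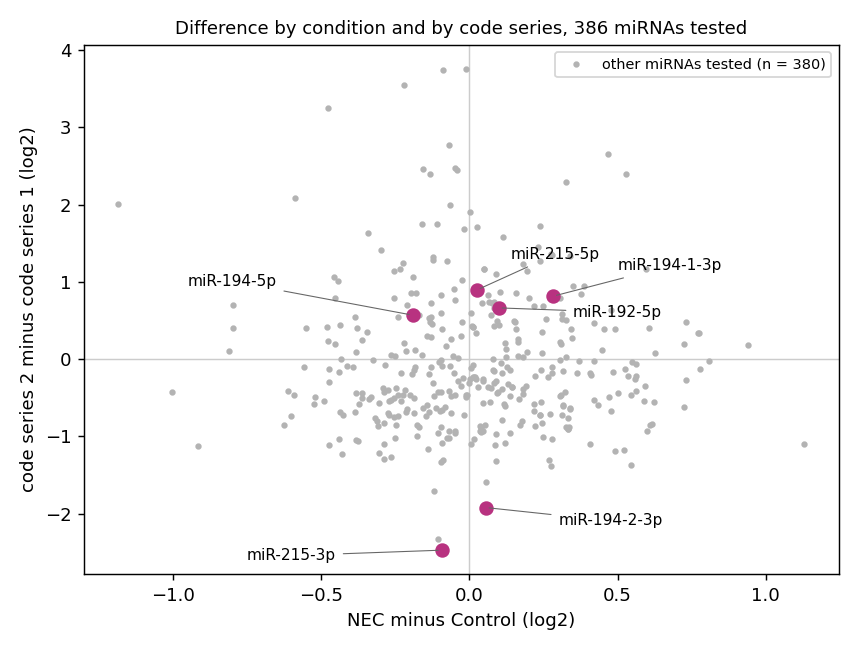
Difference between code series 2 and 1 (vertical axis, log2) against the difference between NEC and Control (horizontal axis, log2) for each miRNA tested, with miR-192, miR-194 and miR-215 products in colour. They lie within 0.28 of 0 on the horizontal axis, and miR-215-3p is the lowest point of all at -2.47.

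Marker lists of the cell types were measured in the same libraries. The summed values of the 7 epithelial markers were 16.09 to 16.33 on the log2 scale in code series 1 and 16.18 to 16.39 in series 2. They were 16.09 to 16.39 in Control and 16.18 to 16.33 in NEC. The summed values of 5 smooth muscle and mesenchymal markers were 18.65 to 19.43 in series 1 and 18.93 to 18.97 in series 2. Their mean over the libraries was 18.92, beside 18.88 for miR-143-3p alone, so the sum says little about the other markers. Of the 5, 0 were called higher and 2 lower in series 2, among them miR-145a-5p with -0.68 (standard error 0.17). Between the series, 3 epithelial markers were called higher and 2 lower, among them miR-200a-3p with a difference of 0.86 (standard error 0.17) and miR-200c-3p with -0.72 (standard error 0.16). Sums were 6.74 to 8.35 and 6.62 to 7.43 for the 2 leukocyte markers found of 4, 9.40 to 10.09 and 9.71 to 10.42 for 3 red blood cell markers, and 6.02 to 6.54 and 5.73 to 7.58 for the hepatocyte miRNA miR-122-5p. Of the 2 red blood cell markers tested, 1 was called lower in series 2, miR-486a-5p with -0.88 (standard error 0.14). The third, miR-144-3p, was not tested, and its values were 2.56 to 2.75 in series 1 and 5.60 and 5.83 in series 2. Among leukocyte and hepatocyte markers 0 were called. Over all miRNAs tested, 25.4% were called higher and 32.1% lower. The part of cell composition in the difference between the series was not tested.

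The members together held a large share of the summed values of the 604 miRNAs, which are not read counts. Of the summed back-transformed values, that is 2 to the power of the log2 value, they held 16.1%, 18.8% and 24.7% in Control replicates 1, 2 and 3 and 21.9%, 16.6% and 21.4% in NEC replicates 1, 2 and 3. The Control mean of 19.9% ± 4.39 and the NEC mean of 19.98% ± 2.90 (SD, n = 3 each) lay within this spread (p = 1 in a two-sided exact permutation test, whose smallest possible p is 0.1 with 3 libraries in each group). The share ranged from 16.1% to 21.4% in code series 1 and from 21.9% to 24.7% in series 2.

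Most of it came from the guides, and the pair with the common seed held 10.5% to 15.5% in series 1 and 16.2% to 18.3% in series 2. Within that pair mmu-miR-215-5p was above mmu-miR-192-5p in 6 of 6 libraries and made up 54.8% to 61.9% of the sum of both. The log2 difference, mmu-miR-192-5p minus mmu-miR-215-5p, was -0.51 ± 0.21 in Control against -0.43 ± 0.14 in NEC (SD, n = 3 each, p = 0.7 in the exact permutation test).

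**Figure D3:**
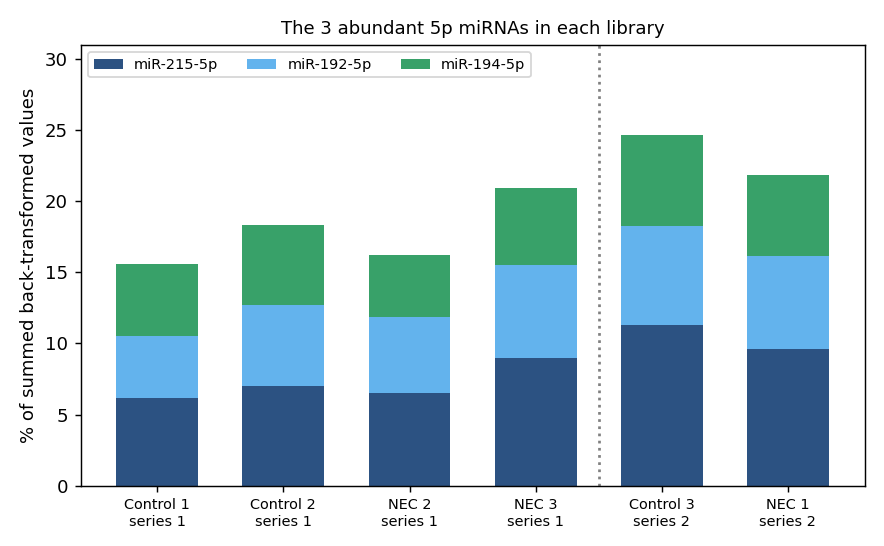
Percent of the summed back-transformed values of each library (vertical axis) held by each of the 3 guide arms, with libraries ordered by code series and group (horizontal axis). The bars reach 15.6% to 20.9% in code series 1 and 21.8% to 24.6% in code series 2.

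As the product of both clusters, mmu-miR-194-5p was compared with the mean of the other guides, which a shift of the whole library cannot change. The log2 difference was -0.01, -0.17 and -0.49 in Control replicates 1, 2 and 3 and -0.49, -0.43 and -0.51 in NEC replicates 1, 2 and 3. The Control libraries spread widely, the NEC libraries lay together, and the value of Control replicate 3 lay among them. The Control mean was -0.22 ± 0.24 and the NEC mean -0.48 ± 0.04 (SD, n = 3 each, p = 0.2 in the exact permutation test). The difference of means was -0.38 within code series 1 and -0.003 within series 2, and it was -0.25 over all libraries, -0.15 without Control replicate 1 and -0.39 without Control replicate 3.

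Against mmu-miR-192-5p alone, a comparison chosen after the values were seen, mmu-miR-194-5p was at 0.25, -0.02 and -0.14 in Control, against -0.22, -0.29 and -0.27 in NEC. Here the groups did not overlap, as for 9.84% of single miRNAs, and the share among differences of 2 miRNAs was not counted. The difference between the groups was -0.40 within code series 1 and -0.08 within series 2.

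The arms of the Mir215 hairpin changed their ratio between the code series and not detectably between the groups. The log2 value of mmu-miR-215-5p minus that of mmu-miR-215-3p was 3.74, 4.02 and 7.49 in Control replicates 1, 2 and 3 and 7.29, 4.04 and 4.27 in NEC replicates 1, 2 and 3. It was thus 3.74 to 4.27 in the libraries of code series 1 and 7.29 to 7.49 in those of series 2, in either condition. Separation of the series was common, as arm differences did not overlap between them for 56 of 92 hairpins with both arms tested. The Control mean of 5.08 ± 2.09 and the NEC mean of 5.20 ± 1.81 (SD, n = 3 each) did not differ beyond this spread (p = 0.7 in the exact permutation test).

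Across 92 hairpins with both arms tested, the median size of the change of this arm difference between the series was 0.66, and that of miR-215 was 3.37, second to miR-455, named after its values were seen, with 3.77. It was 1 of 7 hairpins whose arms were both called between the series in opposite directions, 4 of them with the 5p arm higher and the 3p arm lower in series 2. By the size of its change between NEC and Control, 0.12, miR-215 ranked 67 of the 92.

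The 3p arms of the miR-194 hairpins behaved differently from each other. Since mmu-miR-194-5p is identical from both hairpins, its difference from a 3p arm is not the arm ratio of 1 hairpin. The values of mmu-miR-194-1-3p were low, with a mean of 4.41, and their precision is unknown. The log2 value of mmu-miR-194-5p minus mmu-miR-194-2-3p ranged from 6.78 to 7.52 in code series 1 and from 9.78 to 9.82 in series 2. Arm differences likewise did not overlap between the series for 56 of the 92 hairpins above. By condition it was 8.26 ± 1.35 in Control against 8.02 ± 1.57 in NEC (SD, n = 3 each, p = 0.7 in the exact permutation test), so the condition did not separate what the series did. The log2 value of mmu-miR-194-5p minus mmu-miR-194-1-3p was 12.44, 12.63 and 12.14 in Control replicates 1, 2 and 3, against 11.87, 11.93 and 11.99 in NEC. This difference was singled out after its values were seen. In it Control and NEC did not overlap, as for 9.84% of single miRNAs (differences of 2 miRNAs were not counted), while the series did. NEC minus Control was -0.47 (p = 0.1 in the exact permutation test with n = 3 each, the smallest it can give), and it was -0.58 within series 1 and -0.27 within series 2. Between the 3p arms themselves, mmu-miR-194-2-3p exceeded mmu-miR-194-1-3p by 4.51 to 5.15 in series 1 and by 2.09 to 2.32 in series 2, and Control and NEC overlapped (p = 0.7 in the exact permutation test). What part of mmu-miR-194-5p came from each hairpin cannot be read from these values.

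**Figure D4:**
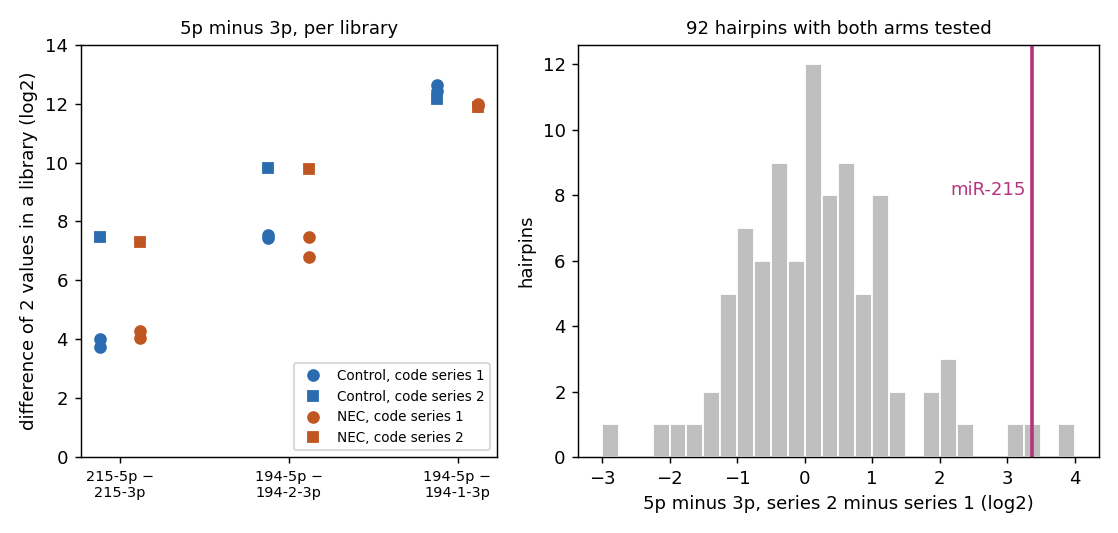
Left, the log2 value of miR-215-5p minus miR-215-3p in each library, and of miR-194-5p, which is identical from both miR-194 hairpins, minus the 3p arm of each. Circles are code series 1 and squares code series 2. Right, the number of hairpins (vertical axis) by the change of 5p minus 3p from code series 1 to 2 (horizontal axis, log2), with miR-215 at 3.37.

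The likeness of patterns was measured as the root mean square difference of values centred on each miRNA's mean over the 6 libraries, among 79 other miRNAs with a mean of at least 10. The nearest to mmu-miR-192-5p were miR-7a-5p (0.067), miR-126a-3p (0.083) and miR-148b-3p (0.13), each nearer than mmu-miR-215-5p at 0.15 or mmu-miR-194-5p at 0.19. The nearest to mmu-miR-215-5p were miR-148b-3p (0.11), miR-7a-5p (0.1495) and miR-200a-3p (0.16). Of these only miR-148b-3p was nearer to it than mmu-miR-192-5p (0.1483), and mmu-miR-194-5p was at 0.22. For mmu-miR-194-5p they were miR-143-5p, miR-199b-3p and miR-199a-3p, each at 0.13 to 0.14. The 3p arms mmu-miR-215-3p and mmu-miR-194-2-3p were nearer to each other (0.34) than to any of the 79, of which let-7d-3p, also named after its values were seen, was the nearest to both (0.59 and 0.35). The 79 leave out miRNAs with lower means, although mmu-miR-194-2-3p itself has a mean of 8.44. Among those left out, miR-455-3p differed by -2.32 between the series. Whether the 3p arms are nearest to each other among all miRNAs was therefore not measured. The distances rest mainly on the difference between the code series, which 1 pair of libraries carries.

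Of the other lists, 2 epithelial markers were higher and 5 lower in NEC, with a median difference of -0.13 and 0 called in limma. The difference was 0.12 (standard error 0.23) for miR-200b-3p, -0.02 (standard error 0.34) for miR-200c-3p and -0.18 (standard error 0.38) for miR-200a-3p. In the miR-34 family, whose members are also induced by p53, 1 of 3 tested was higher and 2 were lower, and 0 were called. The difference was -0.36 (standard error 0.24) for miR-34c-5p, 0.05 (standard error 0.24) for miR-34a-5p and -0.34 (standard error 0.29) for miR-34b-3p. Among smooth muscle and mesenchymal markers 2 were higher and 3 lower, with -0.25 (standard error 0.27) for miR-143-3p, -0.39 (standard error 0.33) for miR-145a-5p and 0.17 (standard error 0.24) for miR-199a-5p. The leukocyte miRNA miR-150-5p had -1.003 (standard error 0.36) and miR-223-3p -0.14 (standard error 0.24). For red blood cells miR-451a had 0.35 (standard error 0.30) and miR-486a-5p 0.33 (standard error 0.37), and the hepatocyte miR-122-5p had 0.77 (standard error 0.38). None of these passed an adjusted p under 0.05 in limma.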

How the data were processed

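Small RNA libraries of mouse intestine, 3 NEC and 3 Control, were read as 50 nt single-end reads by the authors. The deposited table holds normalized values on a log2 scale for 604 miRNAs. The labels name the build mm10, and no source used here gives the aligner, counting tool, miRNA annotation or log2 transformation. Columns were matched to libraries by the code in the labels, and 0 columns stayed unmatched. The members and lists were chosen with earlier results of these data known. Tested were the 386 miRNAs that reached 3.32 (log2 of 10) in at least 3 libraries. The condition was tested two-sided on the deposited values in limma 3.58.1 under R 4.3.3, without a covariate and with Benjamini-Hochberg adjustment over all 386, and the code series with the condition as a covariate. The script was tested on simulated data. Single values were compared with exact permutation tests. Alternatives were 4 shifts of the libraries, filters of none and 5.64, added constants of 0.1, 1 and 5, a robust fit, the code series as a covariate or series 1 alone, the replicate block, and leaving out each library. Sequences and hairpin positions come from RefSeq (GRCm38.p6), in which 6 of the 6 names were found, and genes that contain a hairpin from GENCODE M21. Beyond the members, the 3 most abundant tested miRNAs of each list and the 3 nearest in pattern were named.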

Additional observations from a re-analysis of the deposited data

How the results depend on the processing

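Under the 77 alternatives for the members and miR-194-1-3p that kept all libraries or used code series 1 alone, each difference between NEC and Control kept its direction and was not called. The filters, the robust fit, the code series as a covariate and the replicate block leave the difference itself unchanged. Only the shifts, the added constants and code series 1 alone could thus have changed a direction. Leaving out 1 library, with and without the code series as a covariate (the covariate combination was chosen after seeing the data), gave log2 differences of -0.079 to 0.36 for miR-192-5p, -0.39 to 0.024 for miR-194-5p, -0.21 to 0.39 for miR-215-5p, -0.93 to 0.72 for miR-215-3p and -0.54 to 0.74 for miR-194-2-3p, so their sign depended on single libraries. The ends of these ranges came from fits without the covariate, where leaving out a library makes the code series unequal between the groups. With the covariate the range was -0.23 to 0.060 for miR-215-3p and -0.068 to 0.14 for miR-194-2-3p. For miR-194-5p it was then -0.32 to -0.054, with no change of sign. The smallest adjusted p of a member in any of these limma fits was 0.477. The count of miRNAs called in limma was 0 as reported and 2 in code series 1 alone, and none of those called was a member. With the covariate, leaving out Control replicate 3 or NEC replicate 1 leaves 1 library in series 2. Those fits are the same as that of code series 1 alone and add nothing to it. The other fits with a library left out called 0. The filter at 5.64 gave no value for miR-194-1-3p. Between the code series the count was 222 with all libraries and 126 to 212 with a library left out, lowest without NEC replicate 1 (126) and Control replicate 3 (136). Of the calls between the code series, the 98 higher and 124 lower became 115 and 96 after a median shift, 84 and 153 after a shift by the 75th percentile, 51 and 199 with equal totals, and 113 and 78 with equal totals without the 10 most abundant miRNAs. The last 3 shifts of this comparison were chosen after seeing the data. The median over all miRNAs tested was -0.19 as deposited and -0.53 with equal totals. The difference in the members' share, 0.13 percentage points, was -1.75 to 2.54 with a library left out, -2.78 in code series 2 alone and -1.21 without miR-143-3p in the total; the cause was not tested. The difference of miR-192-5p minus miR-215-5p was -0.023 to 0.18 with a library left out, that of miR-194-5p minus the mean of the other guides was -0.39 to -0.15, and that of miR-215-5p minus miR-215-3p was -0.93 to 1.32 and, in code series 2 alone, -0.20. With 3 libraries against 3 the exact test could not pass 0.05 in any of these. With the replicate number as a replicate block the difference of miR-192-5p was 0.10, and the block changed no call. Deviations of same-numbered libraries correlated at -0.69, 0.73 and -0.78 for replicates 1, 2 and 3. The code series was not removed first, and only the libraries of replicate 2 share a series. Whether the numbers pair the libraries thus cannot be read from these correlations. Since the depth is unknown, the precision of low values such as miR-194-1-3p cannot be given.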
